A study of Mus musculus with 4 samples.

Results

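Vitamin A handling genes are the genes that take up carotenoids and retinoids, cleave them, bind, esterify, oxidise and reduce them, and make retinoic acid. The 9 described here were the rows of both deposited tables whose symbol is Isx, Scarb1, Bco1, Rbp2, Lrat, Rdh7, Dhrs3, Aldh1a1 or Aldh1a2, out of 24182 genes listed in both. All 9 were found in each table, and all carried an adjusted p in each. The rule names symbols, and the list of symbols was drawn up with earlier results of these data known.

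RNA came from crypts of the small intestine of male C57BL/6J mice 9 weeks old. Crypts are the pits of the gut lining that hold the stem cells, and the labels name small intestinal epithelial cells as the cell type. There were 4 groups, namely mice with food and mice fasted for 24 hours, each without tetracycline or after 21 days of this antibiotic, and the labels list 1 sample in each. The study's design asked how depletion by tetracycline of what the labels abbreviate as AKK alters expression in fed against fasted animals, and the deposited tables hold the authors' comparison of fasted with fed mice, 1 table without and 1 with the antibiotic. No genotype other than the strain is given, and no label says whether mice were pooled. The whole counts behind the tables came from 4 libraries each, 2 fasted and 2 fed. Nothing says that these libraries came from separate mice, so the p-values measure only the spread between them, which may be technical. The authors' means summed to 65863261 normalized counts per average library without and 65327199 with tetracycline, and the largest size factor (the factor that scales a library for its depth) was 1.17 and 1.75 times the smallest.

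Enterocytes, the absorptive cells of the gut, obtain vitamin A as carotenoids from plants or as retinyl esters from animal food. Beta-carotene is taken up by the receptor Scarb1 and cleaved to retinal by Bco1; retinal bound to Rbp2 is reduced to retinol, which Lrat esterifies for export in chylomicrons. A smaller flow is oxidised to retinoic acid, which acts through the nuclear receptors of the Rar and Rxr families. Isx, a homeobox factor of the intestine that retinoic acid induces, is known to repress Bco1 and Scarb1 and so closes a feedback loop on vitamin A uptake.

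Promoters of 8 of the 9 genes were read from RefSeq (assembly GRCm38.p6), each from 250 bases before to 50 bases after a start site. They were searched on both strands for AGGTCA, the hexamer that Rar, Rxr, Ppar and related nuclear receptors bind, for 2 copies of it in 1 direction with 1 base between (a pair, whose copies are also counted singly), and for TAATTA, a core recognised by many homeobox factors. AGGTCA was present in 3 of the 12 promoters of these 8 genes, those of Bco1 and Rbp2 and 1 of the 2 of Rdh7, and in 16.3% of 32851 promoters of the same length. Only Bco1 among the 8 had the pair, which 13 of the 32851 promoters (0.0396%) held. TAATTA was in none of the members' promoters and in 5.29% of all. The promoters of Bco1, the gene whose fasting change passed the test, and of Rbp2, the most abundant member, are shown with AGGTCA or its reverse complement in capitals. The Bco1 window is chr8:117095615-117095914 and the Rbp2 window chr9:98490287-98490586, both on the + strand and written 5′ to 3′.
Bco1: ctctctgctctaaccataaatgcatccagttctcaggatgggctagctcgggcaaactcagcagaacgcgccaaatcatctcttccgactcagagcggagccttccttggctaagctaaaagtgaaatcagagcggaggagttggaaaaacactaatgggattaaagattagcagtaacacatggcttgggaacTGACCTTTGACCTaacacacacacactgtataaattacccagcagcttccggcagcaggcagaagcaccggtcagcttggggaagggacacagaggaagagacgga
Rbp2: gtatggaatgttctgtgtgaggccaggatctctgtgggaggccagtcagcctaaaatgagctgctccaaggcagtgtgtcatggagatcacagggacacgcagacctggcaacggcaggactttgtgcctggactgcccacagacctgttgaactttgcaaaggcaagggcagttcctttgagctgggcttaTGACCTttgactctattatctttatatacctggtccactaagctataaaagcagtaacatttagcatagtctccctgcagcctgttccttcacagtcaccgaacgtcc
In Bco1 the copies begin 56 and 49 bases before the start site, and in Rbp2 the single copy begins 58 bases before it. The copy of Rdh7 begins 105 bases before 1 of its 2 annotated start sites. A match of letters describes the window and is not evidence of binding.

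Of the 9 genes, Bco1 alone passed the authors' test in either table: it fell 4.37-fold on fasting without tetracycline. In the authors' deposited table without tetracycline 1 of 9 members was called (adjusted p under 0.05, DESeq2's Wald test with Benjamini-Hochberg adjustment), against 2.27% of the 18100 genes tested. With tetracycline 0 of 9 were called in the authors' deposited table, against 0.600% of 17993 genes. At an unadjusted p under 0.05 the members numbered 3 without and 2 with tetracycline, against 10.8% and 5.34% of all genes tested. The median log2 change of the 9 was -0.16 without and 0.12 with tetracycline, beside 0.0067 and -0.018 for all genes tested. The fasted and fed libraries did not overlap for 3 of the 8 members with recovered library values in each table, against 44.9% of 17632 genes in the first table and 31.3% of 17493 in the second, shares near those of the members.

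**Figure D1:**
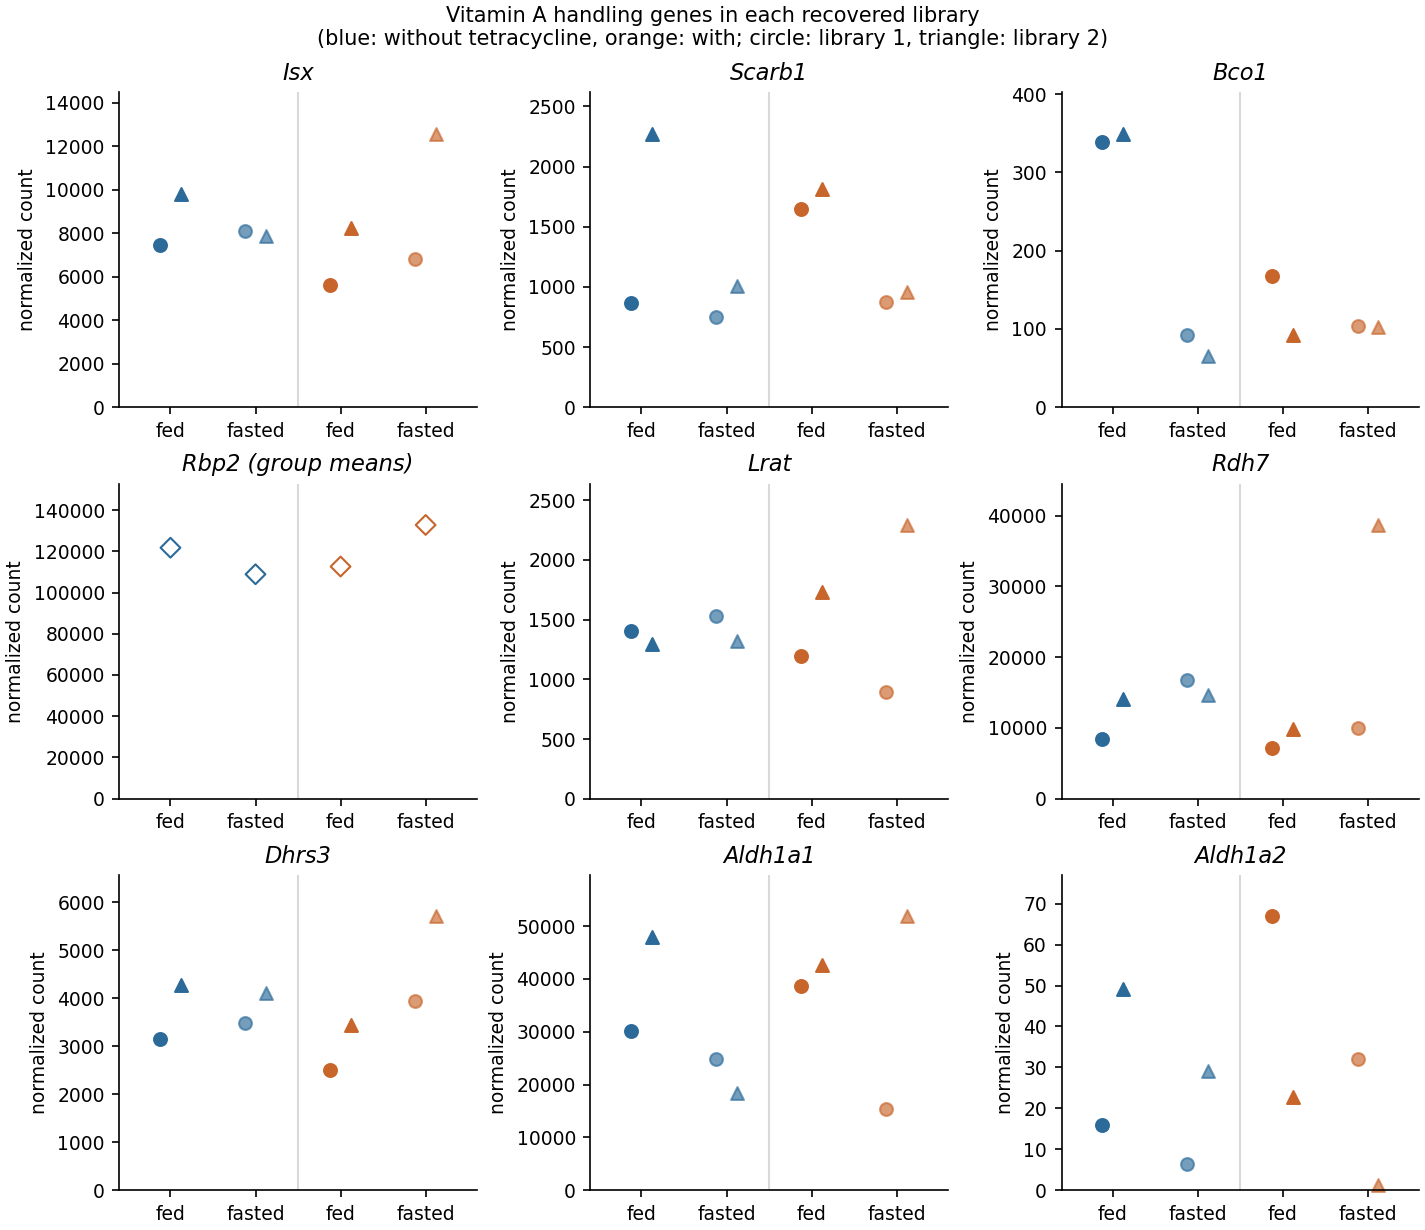
Normalized counts (vertical axes from 0, a separate scale per gene) of the vitamin A handling genes in each fed and fasted library, blue without and orange with tetracycline, with a circle for library 1 and a triangle for library 2 of a side and open diamonds for the group means of Rbp2. Bco1 without tetracycline stands at 339 and 349.6 in fed against 91.7 and 65.6 in fasted libraries, whereas Rdh7, Aldh1a1 and Lrat with tetracycline have 1 fasted library far above the other.

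Isx, the repressor at the head of the loop, did not pass the test in either table. Without tetracycline it stood at 8124 and 7859 normalized counts in the fasted and 7479.8 and 9814 in the fed libraries. With tetracycline the values were 6801 and 12594 fasted and 5619 and 8250.0 fed. The fasted and fed libraries overlapped in both tables. Its log2 change of fasted over fed was -0.11 (SE 0.26, adjusted p 0.961) without and 0.48 (SE 0.48, adjusted p 1.0) with tetracycline by the authors' deposited tables. The 95% intervals, -0.63 to 0.41 and -0.46 to 1.42, leave room for changes of either sign.

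Scarb1, the carotenoid and lipoprotein receptor that Isx is known to repress, was lower in fasted mice in both tables without passing the adjusted test. Its normalized counts without tetracycline were 749 and 1007 in the fasted and 865 and 2275 in the fed libraries. With the antibiotic they were 879 and 958 against 1651 and 1816. The groups overlapped without tetracycline, where 1 fed library stood 2.63-fold above the other, and did not overlap with it. The authors' deposited tables gave log2 changes of -0.84 (SE 0.42, p 0.0447, adjusted p 0.438) and -0.92 (SE 0.37, p 0.0122, adjusted p 0.583). The first rests on the second fed library, since without that library the log2 change was 0.021; the second lay between -0.98 and -0.85 whichever library was left out.

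Bco1, the enzyme that cleaves beta-carotene to retinal and the other known target of Isx, fell on fasting in mice without tetracycline. Its normalized counts were 91.7 and 65.6 in the fasted and 339 and 349.6 in the fed libraries, from 100, 61, 342 and 348 whole counts. Both fasted libraries lay far below both fed libraries, and the fed pair differed by a factor of only 1.03. In the authors' deposited table the log2 change was -2.13 (SE 0.37, 95% interval -2.85 to -1.41, adjusted p 2.28e-06, DESeq2). By p-value Bco1 was at rank 57 among all genes in that table, and by size at rank 102 among the 220 genes called lower. Leaving out each library in turn gave log2 changes between -2.39 and -1.91.

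In mice given tetracycline Bco1 did not pass the test. The fasted libraries held 104 and 103 and the fed libraries 168 and 92.8 normalized counts, so the groups overlapped. The log2 change in the authors' deposited table was -0.34 (SE 0.55, 95% interval -1.42 to 0.75, adjusted p 1.0). It was 0.16 with the first and -0.70 with the second fed library left out, so its sign depended on the fed library used. Set side by side, the fed means were 344 normalized counts without and 130.4 with tetracycline, and the fasted means 78.8 and 103.

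The difference between the fasting changes of Bco1, with minus without tetracycline, was 1.79 on the log2 scale (SE 0.67, 95% interval 0.49 to 3.10). Its p was 0.00707 in a two-sided Wald test, and 1.0 after Benjamini-Hochberg adjustment over 17571 genes, so the difference did not pass the test. That test called 0 of 9 members, beside 4 genes or 0.0228% of all. At an unadjusted p under 0.05 it had 1 member, Bco1, and 1.05% of all genes. The statistic had an SD of 0.730 over all genes, below the 1 of a standard normal.

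Marker lists of the cell types in the preparation were set beside the fall of Bco1. Of 10 markers of absorptive enterocytes, the cells that make Bco1, 0 were called without tetracycline and 8 had a log2 change above 0. Their sum over the 6 with recovered libraries was 607751 and 242376 normalized counts in the fasted and 206289 and 277441 in the fed libraries, and no marker was at 0. Of 6 markers of the proximal small intestine, 1 was called higher (Fabp1) and 1 lower (Slc40a1), with sums over 5, Fabp1 left out because its counts were not recovered, of 20257 and 20488 fasted and 21670.1 and 25943 fed. Over all 6 the summed means went the other way, 217735 fasted and 117178 fed, of which Fabp1 alone held 197363 and 93371. Of the 6 log2 changes 3 were above and 3 below 0. Of 6 markers of the distal part, 1 (Fabp6) was called lower, with sums of 27635 and 11791 fasted and 33609.8 and 41642 fed, and no marker of either list was at 0 without tetracycline. Markers of other cell types also moved with fasting in the same table: 4 of 5 Paneth cell markers were called higher, 3 of 6 lymphocyte, 2 of 6 myeloid, 3 of 7 stromal and 1 of 5 goblet cell markers (Agr2) lower. Of 6 stem cell and 5 proliferating cell markers 0 were called. The lymphocyte sums were 3886 and 7314 fasted against 9457 and 12229 fed, and the stromal sums 765 and 1459 against 1569 and 2923. The part of the gut segment sampled and of the cell makeup in the Bco1 result was not tested. In bulk RNA, fewer cells of a type and less RNA per cell cannot be told apart.

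The fasting changes of other genes whose promoter holds the same pair were looked up. Besides Bco1, 6 of the 13 promoters belonged to genes listed in both tables, and of the 5 tested in each, 0 were called in the first and 1 in the second of the authors' deposited tables, beside 2.27% and 0.600% of all genes tested. That gene was Apol7c, with log2 changes of -1.42 (adjusted p 0.0963) and -2.78 (adjusted p 0.0101). This look-up was added after the Bco1 promoter had been seen.

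Rbp2, the retinol- and retinal-binding protein of enterocytes, was the most abundant member and did not pass the test in either table. More than 1 set of whole counts matched its deposited values, so the values of single libraries were not recovered and only group means are given. These were 108851 fasted and 121706 fed without tetracycline, and 132755 fasted and 112595 fed with it. The log2 changes in the authors' deposited tables were -0.16 (SE 0.29, adjusted p 0.941) and 0.24 (SE 0.61, adjusted p 1.0). The 95% intervals were -0.72 to 0.40 and -0.96 to 1.44.

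Lrat, which joins retinol to a fatty acid for storage and export, had nearly level group means. Without tetracycline the fasted libraries held 1534 and 1321 and the fed libraries 1406 and 1300.0 normalized counts. With tetracycline they held 890.3 and 2293 against 1199 and 1734. The fed libraries with tetracycline lay between the 2 fasted ones, and the groups overlapped in both tables. The authors' deposited log2 changes were 0.077 (SE 0.27, adjusted p 0.977) and 0.12 (SE 0.56, adjusted p 1.0). With tetracycline this depended on the fasted library used: without the second it was -0.72, and over all libraries left out in turn it ran from -0.72 to 0.65.

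Rdh7, a short-chain dehydrogenase that oxidises retinol to retinal, had higher values in fasted than in fed libraries in both tables, and passed the adjusted test in neither. Without tetracycline the fasted libraries held 16831 and 14691 and the fed libraries 8469 and 14104 normalized counts. With tetracycline they held 10004 and 38679.6 against 7181 and 9803. The groups did not overlap in either table, although the nearest libraries were close. The authors' deposited tables gave log2 changes of 0.48 (SE 0.31, p 0.119, adjusted p 0.640) and 1.52 (SE 0.64, p 0.0183, adjusted p 0.689). With 1 library left out in turn, the change without tetracycline ran from 0.16 (first fed library left out) to 0.90 (second fed library left out). With tetracycline it ran from 0.24 (second fasted library left out) to 2.19 (first fasted library left out).

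Relatives of Rdh7 could share its reads, which was not tested, so they were also summed, a step added after the values had been seen. Rdh1, Rdh9, Rdh16 and Rdh16f2 were listed in both tables and Rdh19 without tetracycline only. The log2 ratio of summed means, fasted over fed and Rdh7 included, was 0.72 without and 1.54 with tetracycline. Rdh7 made up 58.2% to 85.3% of the sum in the 8 libraries. Within the family only Rdh16 was called, without tetracycline (log2 change 1.84, SE 0.49 and adjusted p 0.0112 by the authors' deposited table), where it held 1964 and 695 normalized counts fasted and 223 and 517 fed. With tetracycline its log2 change was 1.83 (SE 0.74, adjusted p 0.613, by the authors' deposited table), with 301 and 1707 fasted and 254 and 312 fed.

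Dhrs3, which reduces retinal back to retinol and limits retinoic acid formation, did not pass the test. Without tetracycline the fasted libraries held 3483 and 4117 and the fed libraries 3139 and 4272 normalized counts. With tetracycline they held 3944 and 5704 against 2496 and 3450.4. The groups overlapped in the first table and not in the second. The authors' deposited log2 changes were 0.036 (SE 0.28, adjusted p 0.991) and 0.70 (SE 0.42, p 0.0993, adjusted p 1.0).

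Aldh1a1, the retinal dehydrogenase of the epithelium that makes retinoic acid, was lower in fasted libraries without tetracycline but was not called. Its normalized counts were 24817 and 18433 fasted and 30166 and 47961 fed in that table. With tetracycline they were 15307 and 51842 fasted and 38603 and 42641 fed. In the first table the groups did not overlap, and in the second both fed libraries lay between the fasted ones. The log2 changes were -0.85 (SE 0.31, p 0.00638, adjusted p 0.153) and -0.27 (SE 0.60, adjusted p 1.0), by the authors' deposited tables. With tetracycline the sign depended on the fasted library: the change was 0.35 without the first and -1.41 without the second.

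Aldh1a2, the retinal dehydrogenase known from mucosal dendritic and stromal cells, was near the lower end of detection. It had 7 and 27 whole counts in the fasted and 16 and 49 in the fed libraries without tetracycline. With tetracycline it had 39 and 1 against 85 and 21. The groups overlapped in both tables, and the log2 changes in the authors' deposited tables were -0.89 (SE 0.94, adjusted p 0.854) and -1.40 (SE 1.25, adjusted p 1.0). With 1 library left out in turn the change without tetracycline ran from -2.34 (second fasted library left out) to 0.16 (second fed library left out). With tetracycline it ran from -5.02, with the first fasted library left out and so resting on 1 fasted count, to -0.44. The summed normalized counts of 6 myeloid markers were 2971 and 6488 fasted and 8827 and 16451 fed without tetracycline, and 9916 and 1273 fasted and 28107 and 8419 fed with it. They stood in the same order as Aldh1a2 over the libraries with tetracycline, and without it in the same order within each side but not across sides. The same held for the sums of 7 stromal markers (with tetracycline 2029.9 and 748 fasted, 3701 and 1505 fed) and of 6 lymphocyte markers (12247 and 1973 fasted, 38749 and 9857 fed), so the match was not particular to myeloid markers. All 6 myeloid markers had a log2 change below 0 in both tables, 2 were called lower without and 0 with tetracycline, and none was at 0 in any library. The part of these cell types in the values of Aldh1a2 was not tested.

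**Figure D2:**
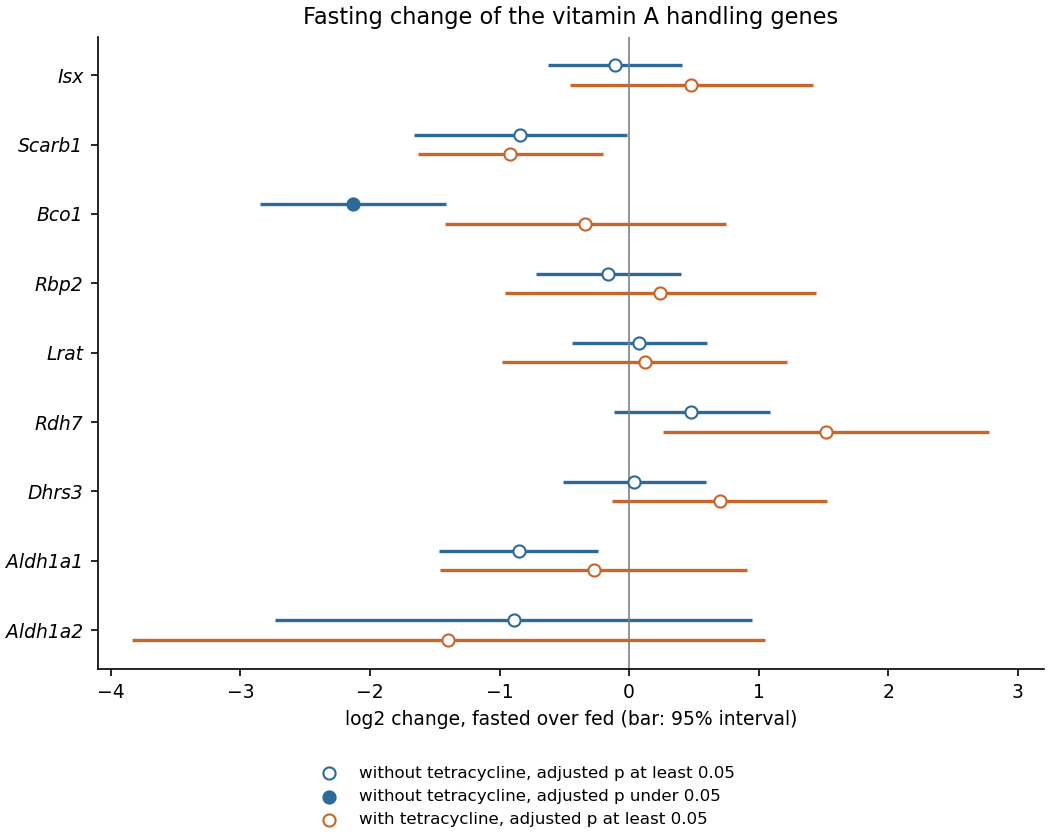
Log2 change of fasted over fed mice (horizontal axis) for each vitamin A handling gene in the authors' deposited tables, blue without and orange with tetracycline; bars are 95% intervals and a filled point marks an adjusted p under 0.05. Bco1 without tetracycline, at -2.13, is the only filled point, and most intervals with tetracycline are wider than those without.

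The libraries that share a side differed most among fasted mice with tetracycline, where the log2 ratio between them (pseudocount 1) had an SD of 0.812 across recovered genes with a mean from 500 up, against 0.355 to 0.492 for the other pairs. The members did not all do so: Bco1 differed more between the fed libraries with tetracycline (1.81-fold) and Scarb1 between the fed libraries without it (2.63-fold). In these fasted libraries the sum of 6 enterocyte markers was 111869.6 in the first and 681786 in the second library, 6.09-fold apart, while the fed libraries held 190754 and 213387. In that order, sums were 273690.1 and 47701 for 3 Paneth cell markers, 114571 and 33341 for 6 stem cell markers and 12247 and 1973 for 6 lymphocyte markers. The goblet cell sums, 126225 and 116763, and the proliferating cell sums, 28841 and 19049.5, were 1.08-fold and 1.51-fold apart, against 1.52-fold and 1.58-fold between the fed libraries with tetracycline. Among these 6 lists, 0 genes were called with tetracycline and no marker was at 0 in a library. Rdh7 was 3.87-fold, Aldh1a1 3.39-fold, Lrat 2.58-fold and Isx 1.85-fold higher in the second fasted library. Dhrs3 and Scarb1 were 1.45-fold and 1.09-fold higher there, Bco1 stood at 104 and 103, and Aldh1a2 was 23.3-fold lower. The part of these differences in the fasting changes with tetracycline was not tested.

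**Figure D3:**
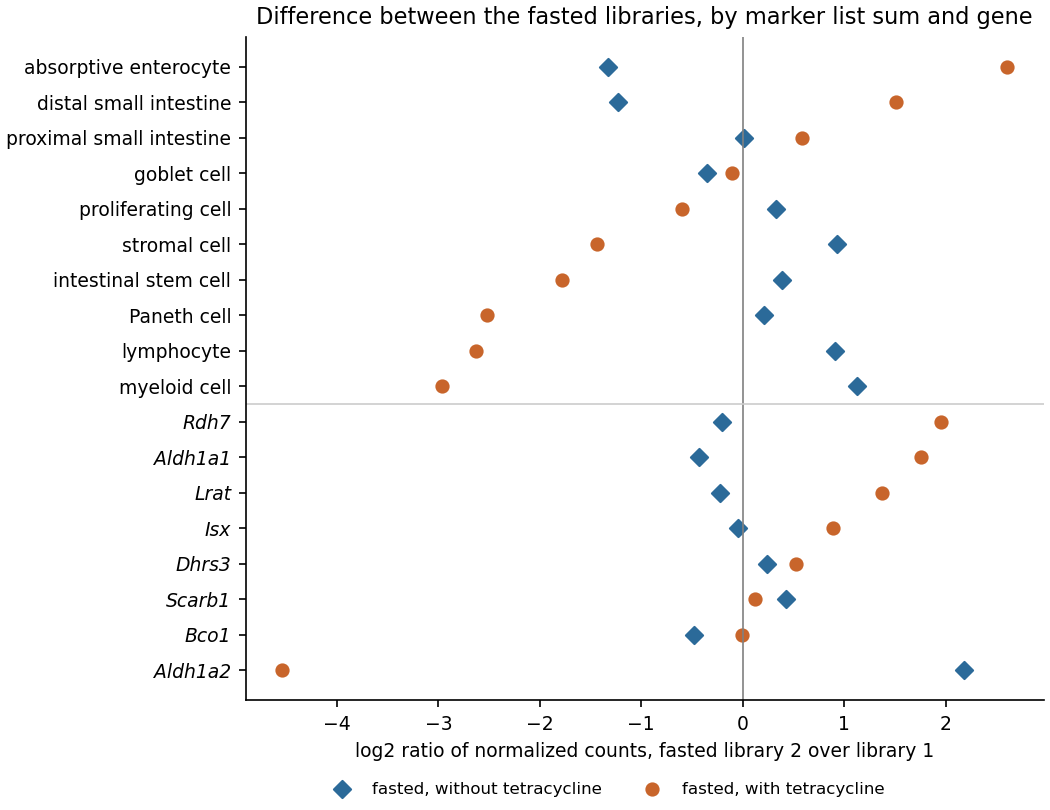
Log2 ratio of normalized counts between the fasted libraries, second over first (horizontal axis), for the summed markers of each cell type or gut region (upper rows) and each vitamin A handling gene with recovered counts (lower rows), blue diamonds without and orange circles with tetracycline. With tetracycline the absorptive enterocyte sum is at 2.61 and the myeloid sum at -2.96, with Rdh7 at 1.95, Bco1 at -0.0068 and Aldh1a2 at -4.54.

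Other genes of retinoid metabolism changed in both directions. Of 50 listed genes, 46 were in the authors' deposited table without tetracycline, 38 of them tested, with 6 called higher and 1 lower, beside 2.27% of all genes tested. With tetracycline 45 were in the authors' deposited table, 39 tested, with 3 called higher and 1 lower, beside 0.600% of all. Their median log2 change was 0.086 without and 0.26 with tetracycline, beside 0.0067 and -0.018 for all genes tested. Of the 38 genes tested in both, the test of the difference called 0, with 0 at an unadjusted p under 0.05.

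Among binding and transport proteins Rbp7, a cellular retinol-binding protein related to Rbp2, fell in both tables. Its normalized counts were 289.9 and 381 fasted and 1749.6 and 1727 fed without tetracycline, and 361 and 376 fasted and 1163 and 1504 fed with it. The groups did not overlap in either, and the log2 changes in the authors' deposited tables were -2.38 (SE 0.28, adjusted p 1.07e-13) and -1.86 (SE 0.39, adjusted p 0.000994). Cd36, a receptor for fatty acids and other lipids, rose without tetracycline (log2 change 1.84, SE 0.35, adjusted p 3.96e-05) and was at 2.53 (SE 0.83, adjusted p 0.209) with it by the authors' deposited tables. With tetracycline its fasted libraries held 3472 and 31897 and its fed libraries 2839.6 and 3289 normalized counts, so that 1 fasted library carried most of the difference. Ttr, the carrier of thyroid hormone and of the plasma retinol-binding complex, and Stra6l, a retinol transporter of the Stra6 family, were not called.

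Of the enzymes acting on carotenoids and esters, Pnliprp2, a lipase, rose in both tables, by 1.43 (SE 0.25, adjusted p 4.19e-06) and 1.82 (SE 0.50, adjusted p 0.0449) on the log2 scale of the authors' deposited tables. The call with tetracycline was lost when p-values were adjusted over every row (adjusted p 0.0651). Bco2, which cleaves carotenoids at another bond than Bco1, was not called. It held 7740.1 and 6062 normalized counts in the fasted and 5654 and 7847 in the fed libraries without tetracycline, which overlapped, with a log2 change of 0.032 (SE 0.29, adjusted p 0.993), by the authors' deposited table. Bco1 was called in that table and its relative Bco2 was not, and the difference between the genes was not tested. Dgat1, which can also esterify retinol, and Lpl were not called.

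Of the oxidoreductases Retsat, the retinol saturase, rose in both tables. It held 33657 and 44615 normalized counts in the fasted and 8189 and 13382 in the fed libraries without tetracycline, and 36633 and 64158 against 7862 and 11529.9 with it. The fasted libraries lay above all fed libraries of their table, and the log2 changes in the authors' deposited tables were 1.86 (SE 0.32, adjusted p 1.34e-06) and 2.38 (SE 0.47, adjusted p 0.000196). The aldo-keto reductase Akr1b8 also rose in both, by 1.21 (SE 0.33, adjusted p 0.0174) and 1.5 (SE 0.41, adjusted p 0.0463), by the authors' deposited tables, and its call with tetracycline was lost with adjustment over every row (adjusted p 0.0671). Akr1b7 rose by 2.01 (SE 0.30, adjusted p 1.58e-08) without and was at 2.14 (SE 0.83, adjusted p 0.532) with tetracycline, where its fasted libraries held 5234 and 47321 normalized counts. Adh1, an abundant alcohol dehydrogenase that oxidises retinol, and Dhrs4 were not called.

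Of the other genes of retinoic acid synthesis 2 of 3, and of the nuclear receptors 5 of 7, were tested in each table, and 0 were called. The 3 Cyp26 enzymes that break down retinoic acid were too low for most tests, with 0 tested without and 1 with tetracycline, which was not called. Cyp26b1, the highest of them, had a mean over the tables of 6.54 normalized counts. Aldh1a7, a relative of Aldh1a1, had log2 changes of -0.018 (SE 0.28) and 0.54 (SE 0.55), by the authors' deposited tables. Rxra, at 0.30 (SE 0.26) and 0.046 (SE 0.40), Rxrb, at -0.16 (SE 0.27) and 0.13 (SE 0.36), and Rara, at -0.028 (SE 0.27) and -0.047 (SE 0.36), did not pass the test in the authors' deposited tables. Ppard, a fatty acid receptor that pairs with Rxr, was at -0.43 (SE 0.34) and -1.14 (SE 0.35, p 0.00122, adjusted p 0.132) there.

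**Figure D4:**
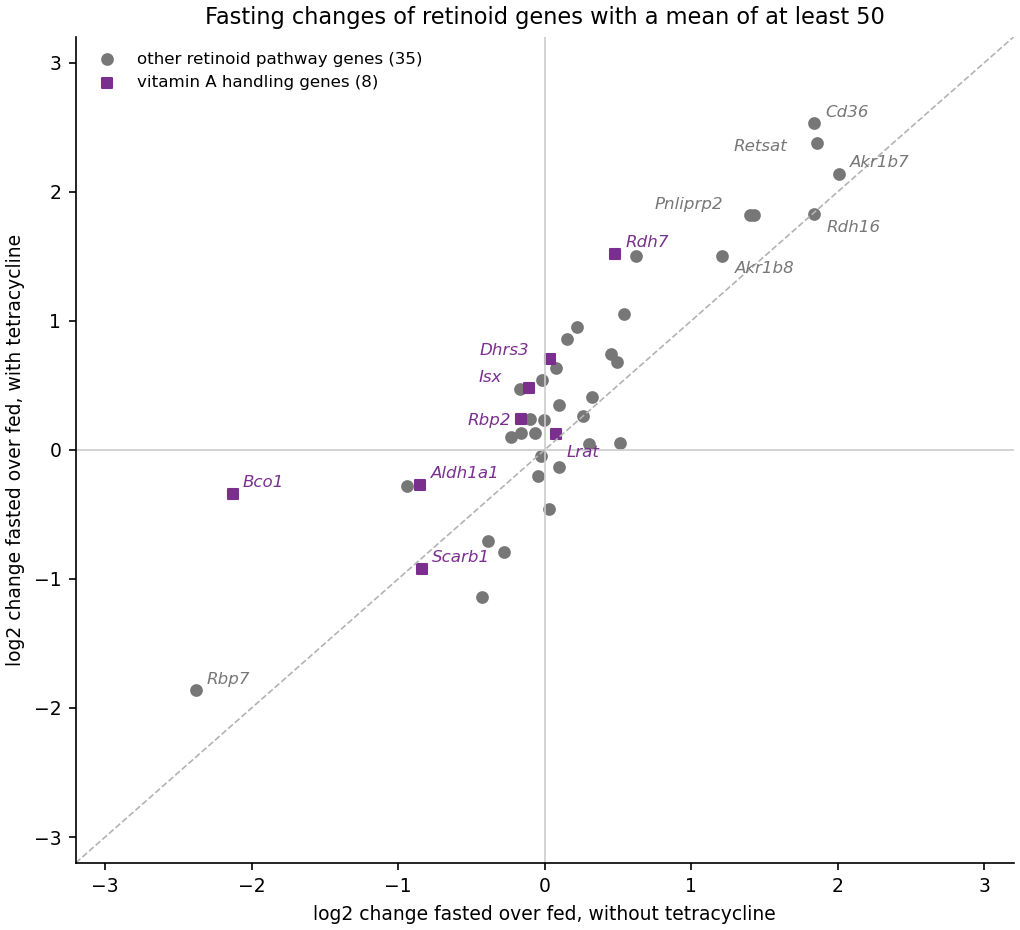
Log2 change of fasted over fed without (horizontal axis) against with tetracycline (vertical axis), by the authors' deposited tables, for vitamin A handling genes (purple squares) and other retinoid pathway genes (grey circles, named where called in either table) with a mean of at least 50 in both; the dashed line marks equal changes. Bco1 lies at -2.13 and -0.34, away from the line, while Rbp7 lies at -2.38 and -1.86 and Retsat at 1.86 and 2.38.

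Levels can be compared between genes only per length, here as normalized counts per kilobase of annotated exon (GENCODE release for GRCm38). The length was that of all annotated exons of a gene joined, not of the transcripts expressed, so the order also depends on the annotation. In fed mice without tetracycline Rbp2 was highest at 126514, followed by Aldh1a1 at 7912, Rdh7 at 6726 and Isx at 4823. Dhrs3 stood at 1266, Lrat at 253, Scarb1 at 185, Bco1 at 135 and Aldh1a2 at 14.4. Library ranges of neighbours overlapped for Aldh1a1 and Rdh7, Rdh7 and Isx, Lrat and Scarb1, and Scarb1 and Bco1, so their order is within the spread of the libraries. Rbp2 led and Bco1 and Aldh1a2 were the lowest in all 4 groups. Bco1 stood at 31.0 per kilobase in fasted mice without tetracycline, and at 51.3 fed and 40.6 fasted with it.

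The genes lie at 9 loci of the mouse genome (GRCm38), all annotated as protein-coding. Bco1 (ENSMUSG00000031845.17) spans chr8:117095854-117133720 on the + strand, on the same chromosome as Isx at chr8:74873173-74893506 (+). Rbp2 lies at chr9:98486115-98509781 (+) and Aldh1a2 at chr9:71215789-71296243 (+). The others are Scarb1 at chr5:125277087-125341094 (-), Lrat at chr3:82892579-82903973 (-), Rdh7 at chr10:127884028-127888817 (-), Dhrs3 at chr4:144892827-144928209 (+) and Aldh1a1 at chr19:20492715-20643465 (+). The library kit did not keep the strand. In the annotation used here 0 exons of other genes overlapped the exons of a member.

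Levels with against without tetracycline cross separately scaled tables and were set side by side without a test, after centring on the median log2 ratio of 16609 genes (0.038 in fed and 0.068 in fasted mice). In fed mice Bco1 had a ratio of -1.44, at percentile 0.458 of those genes, whose 5th to 95th percentiles ran from -0.57 to 1.05. The other 8 members lay inside that range, between -0.45 for Rdh7 and 0.41 for Aldh1a2. The fed libraries of Bco1 with tetracycline stood at 168 and 92.8 normalized counts. Its ratio rests on the same fed values as the difference of its fasting changes, which did not pass its test, and is not a separate result. In fasted mice Bco1 was at 0.32, and the members ran from -0.13 for Aldh1a2 to 0.57 for Aldh1a1 against a range of -0.64 to 0.55. Rdh7 was at 0.56 there; both genes had 1 fasted library with tetracycline far above the other.

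The genes whose pair of fasting changes was nearest to that of Bco1, among 9194 other genes whose mean reached 500, were Gsta3, Gstm1, Tppp, Dnah2 and A930011G23Rik. Bco1 itself, with means of 212 without and 117 with tetracycline, lay below that floor, so genes at its own level were not compared. Likeness was the Euclidean distance over the 2 log2 changes, which is a description over 2 comparisons. Gsta3, a glutathione transferase, had changes of -1.93 and -0.45 at a distance of 0.225, and Gstm1, another, had -1.87 and -0.60 at 0.364 in the authors' deposited tables. The distances of Tppp, Dnah2 and A930011G23Rik were 0.50, 0.601 and 0.623. The SE of the Bco1 change with tetracycline, 0.55, was of the size of these distances.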

How the data were processed

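Crypt RNA of 4 labelled samples in 4 groups was analysed from 2 tables of the authors' fasting comparisons. The columns carry DESeq2's names, per the file headers, and Salmon, DESeq2 and mm10 are named in the submitters' processing notes, without versions or settings. The mean deposited by the authors is a signal: counts scaled by size factors and averaged over a table's libraries. Fold changes and standard errors were deposited as log2 values, their deposited test statistic is a score (change over standard error), and the deposited p-values carry a Benjamini-Hochberg adjustment. A gene is called at an adjusted p under 0.05. The tables were scaled separately, and 0 further per-sample columns were left unused.

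The sign was taken as fasted over fed, after the word order in the tables' names. The recovered counts matched the deposited changes to a median of 1.70e-09 and 3.04e-08 (log2) with the fasted side as the reference level of the authors' DESeq2 fit and to 1.23e-06 and 2.24e-06 with the fed side, which fits an alphabetical reference; this direction is an inference.

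Each mean is a sum of whole counts times 1 step per library. The steps were found from low means, and sets of 4 counts were searched up to a mean of 20000 (listed genes at any mean). A set was kept where a negative binomial fit with the deposited standard error gave the deposited change, or, for genes with almost no reads on 1 side, where it was the single set. Of several sets the best was kept if it was at least 100 times nearer than the next, as for Aldh1a1. In this way 98.2% and 97.9% of genes were recovered, the members except Rbp2 included. These genes held 49.8% and 51.0% of the summed means, since unlisted genes above a mean of 20000 were not searched. The recovery shows 2 libraries a side, against 1 labelled sample. They cannot be tied to samples, and are given singly, with no SD, test or count model. Library 1 of a side has the larger size factor. Both recovery and the difference test were run on simulated data, within limits. The simulated means stayed below that of Aldh1a1, and the planted differences were larger than that of Bco1, so these cases were not covered.

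The difference of the fasting changes was a two-sided Wald test, with minus without tetracycline divided by the combined standard error (squares summed), adjusted over 17571 genes. Group means were rebuilt from mean and change. Named genes are the 9 members, other pathway genes called in either table or among the 4 highest means of their role, and the 5 genes nearest to Bco1; Apol7c, relatives of Rdh7 and the called markers Fabp1, Slc40a1, Fabp6 and Agr2 were named after their values were seen, as were the non-overlap counts. The members and lists were chosen with earlier results of these data known. Python 3.11.15, numpy 2.4.6, pandas 2.3.3 and scipy 1.17.1 were used. Alternatives were other thresholds, filters, scalings and pseudocounts and leaving out each recovered library.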

Additional observations from a re-analysis of the deposited data

How the results depend on the processing

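Of 24 alternatives for the counts of called genes, 22 stayed within 1.5 times. The other pathway genes called with tetracycline numbered 4, but 2 at an adjusted p under 0.01 and 2 with Benjamini-Hochberg adjustment over every row, Pnliprp2 and Akr1b8 being lost in both; fewer genes pass a stricter threshold by construction. Bco1 stayed the 1 member called without tetracycline in each alternative for that count. Other scalings and pseudocounts left 135 of 135 log2 values of members near those reported. With 1 library left out, 50 of 64 log2 values did so and 14 moved by more than 1 standard error. The log2 change of Bco1 without tetracycline ran from -2.39 to -1.91, that of Scarb1 from -1.37 to 0.021 and that of Aldh1a1 from -1.15 to -0.48; with tetracycline that of Rdh7 ran from 0.24 to 2.19. That of Aldh1a2 ran from -2.34 to 0.16 without and from -5.02 to -0.44 with tetracycline. No paired analysis was possible because each group has 1 labelled sample and the recovered libraries carry no number that pairs them. The sign of the change turned with at least 1 library left out for Isx, Scarb1, Lrat, Dhrs3 and Aldh1a2 without and for Isx, Bco1, Lrat and Aldh1a1 with tetracycline, none of them called there. The members' standard errors, 0.26 to 0.94 without and 0.37 to 1.25 with tetracycline, limit what could be called.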
